A study of Mus musculus with 6 samples.

Results

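Bone marrow monocytes with Ly6c2 transcripts were described in tumor-bearing mice, whose tumors came from the mammary carcinoma cell line EMT6. A cell was counted as a Ly6c2 monocyte when its barcode held at least 1 Ccr2 UMI, at least 3 Ly6c2 UMIs and at least 3 UMIs of Fn1 and F13a1 together. A UMI, or unique molecular identifier, stands for 1 captured transcript. In the same cell Elane, Prtn3 and Mpo together had to stay under 0.2% of UMIs, Ngp and Camp together under 0.2%, and Siglech at 0. Before that, barcodes with fewer than 300 genes, fewer than 500 UMIs or over 10% mitochondrial UMIs were left out. The rule found 604 Ly6c2 monocytes among 11651 kept marrow cells, out of 43810 kept cells in all 6 libraries. The cells were thus selected on their measured UMIs of Ccr2, Ly6c2, Fn1, F13a1, Elane, Prtn3, Mpo, Ngp, Camp and Siglech, and the values of those genes are a description and carry no test.

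The study paired BALB/c controls labelled WT with mice labelled Cysltr1 KO, all bearing EMT6 tumors, and sampled bone marrow, spleen and tumor from each. Marrow was enriched for hematopoietic progenitors, so the classes that enrichment retained, and not the whole marrow, were measured. Each library came from a pool of 3 mice and there was 1 library per tissue and genotype. The strain background and deleted segment of the Cysltr1 KO mice, the animals' ages and the time after tumor injection were not given in the sources used here. With 1 library per group no difference between the genotypes had a replicate check, and no p-value was computed. All intervals are exact 95% intervals that cover counting error only.

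Ly6c2-positive monocytes are the classical, inflammatory monocytes of the mouse. They arise in marrow from progenitors that still carry the serine proteases and peroxidase of azurophil granules, and they leave for blood through the chemokine receptor Ccr2. In tissues they can become macrophages or dendritic-like cells, and in tumor-bearing mice they are a source of tumor macrophages and of suppressive myeloid cells. Cysltr1 is a G protein-coupled receptor that binds cysteinyl leukotrienes, a kind of arachidonic acid product.

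The library labelled WT held 166 of these monocytes among 5257 kept cells, a share of 3.16% (exact binomial interval 2.70 to 3.67). The library labelled Cysltr1 KO held 438 among 6394, a share of 6.85% (6.24 to 7.50). The monocytes carried 2232321 UMIs in the first library and 2925922 in the second, with a median of 12465.5 and 5938.5 UMIs per cell. Kept cells as a whole had medians of 13071 and 6521, so the WT library was the deeper one. The limit on azurophil transcripts decided most of the membership. With the limit at 0.5% the shares became 6.37% and 9.98%. Without any limit 1001 and 1058 cells met the other conditions, shares of 19.0% and 16.5%, and the WT library then had the higher share. The direction of the difference between the shares therefore turned with that limit, and the part that cell enrichment had in it was not tested. With the deeper WT library thinned before the rule was applied, its share was 2.84%. The 2 marrow libraries had 61 barcodes in common, and no cell was a Ly6c2 monocyte in both.

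Cysltr1 itself, on chromosome X at 106574346 to 106603679 of mm10, was measured first as a check of the labels. In Ly6c2 monocytes of marrow its level was 37.6 CPM, counts per 1e6 UMIs summed over the cells, in the library labelled WT. It was 81.3 CPM in the library labelled Cysltr1 KO, a ratio of 2.16 (1.68 to 2.81). Over all kept cells the level was 4.83 and 24.4 CPM in marrow, 7.04 and 33.8 CPM in spleen, and 9.93 and 7.59 CPM in tumor. Cysltr1 transcript levels in marrow and spleen thus went against the labels. Another gene, Fndc3c1, followed the labels, with 0 UMIs in the kept cells of each library labelled WT. In the libraries labelled Cysltr1 KO it had 40, 15 and 2 UMIs in cells meeting the rule in marrow, spleen and tumor. The other kept cells there had 203, 710 and 204 UMIs. The source of that difference was not tested. Since neither the deleted segment nor the transcript end that was read is settled by the sources used here, Cysltr1 UMIs cannot show whether the receptor was lost. Libraries are called by their labels throughout, and each direction given between them rests on those labels.

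The genes of the rule set the class apart by construction. Ccr2, the receptor for the chemokine Ccl2, stood at 814 CPM in the Ly6c2 monocytes of the WT library and at 98.8 CPM in its other kept cells. In the Cysltr1 KO library the values were 879 and 90.6 CPM. Ly6c2, a surface protein of classical monocytes whose reads may be shared with the near-identical Ly6c1, had 1382 against 409 CPM and 1864 against 423 CPM. Fn1, encoding fibronectin, had 1370 against 64.6 CPM in the WT library and 1197 against 57.2 CPM in the other. F13a1, a subunit of coagulation factor XIII, had 1468 against 305 CPM and 1391 against 240 CPM.

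Of the markers that took no part in the rule, Ms4a6c was found in every Ly6c2 monocyte, at 1391 CPM in the WT library and 1569 CPM in the Cysltr1 KO library. The other kept cells had 241 and 250 CPM. Ms4a4c was found in 95.2% and 91.6% of the monocytes, at 422 and 503 CPM, against 32.9 and 38.1 CPM in the other cells. Both genes belong to a family of membrane proteins with 4 spanning segments and lie near each other on chromosome 19. The markers outside the rule were thus high in the class in both libraries.

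The boundary with monocyte progenitors was gradual. When the cells that met every other condition were ordered by their share of Elane, Prtn3 and Mpo, Ms4a4a was lower at every step, from 389 CPM under 0.05% to 3.66 CPM at 2% and above in the WT library. In the Cysltr1 KO library it went from 240 to 5.48 CPM. Klf4, a transcription factor needed for classical monocytes, went from 403 to 62.5 CPM and from 375 to 94.4 CPM over the same range. S100a4, a calcium-binding protein of maturing myeloid cells, went from 998 to 19.1 CPM and from 1154 to 44.3 CPM. Ctsg, the gene of the granule protease cathepsin G, ran the other way, from 56.2 to 3904 CPM and from 43.3 to 3126 CPM. Csf1r, the receptor of macrophage colony-stimulating factor, changed less, from 173 to 50.2 CPM and from 156 to 70.7 CPM. Irf8, a transcription factor needed for monocytes, was highest in between: in the WT library it was 295 CPM under 0.05%, 432 CPM from 1% to 2%, and 249 CPM from 2% upward. Depth differed over the same range. The median UMIs per cell went from 10233.5 to 25086 in the WT library and from 4991.5 to 14100.5 in the other. Part of the rule asks for fixed numbers of UMIs, and the part that depth had in these values was not tested.

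**Figure D1:**
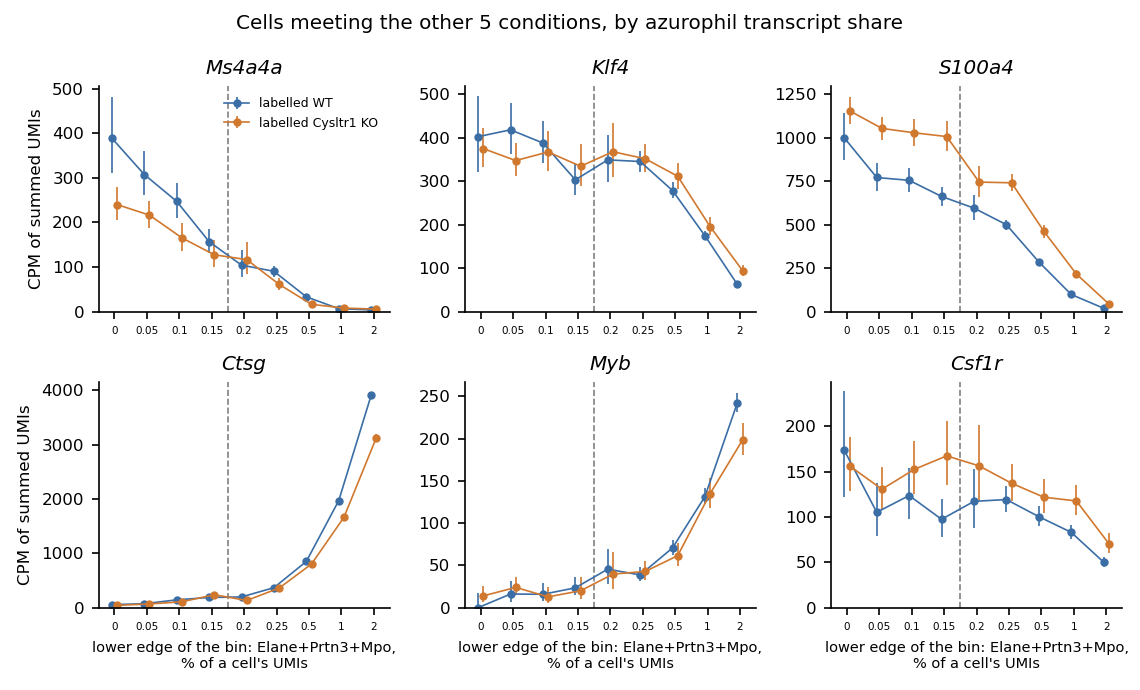
CPM of summed UMIs (vertical axes) for 6 genes in cells that met the other 5 conditions, in bins of the azurophil share of a cell's UMIs (horizontal axes, lower bin edge in %), for the libraries labelled WT and Cysltr1 KO. Points are 1 library each with exact Poisson intervals, and the dashed line marks the limit of 0.2%. Ms4a4a, Klf4 and S100a4 are lower in the last bin than in the first, while Ctsg and Myb rise mainly beyond it.

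Cells just inside and just outside the limit had values that overlapped in part. With a share of 0.15% to 0.2%, 59 monocytes of the WT library had 157 CPM of Ms4a4a, and the 33 cells from 0.2% to 0.25% had 104 CPM. In the Cysltr1 KO library 75 cells inside had 127 CPM and 50 outside had 117 CPM. Ctsg was 188 inside and 197 CPM outside in the WT library, and 238 and 132 CPM in the other. The median azurophil share of the monocytes was 0.128% and 0.0812%. In cells with at least 5 UMIs of the B cell gene Cd79a, which should lack azurophil transcripts, it was 0.0238% over 33 cells and 0.0628% over 25 cells, with median depths of 17644 and 1916 UMIs.

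Markers of B cells and stem cells and a short list of 9 macrophage markers were low in the Ly6c2 monocytes. Neutrophil genes, some dendritic cell genes and a longer list of tissue macrophage genes were present. The 13 neutrophil markers summed to 7190 and 7066 CPM, against 33331 and 70373 CPM in the other kept cells. At least 1% of UMIs came from those markers in 33 of 166 monocytes and 46 of 438. The 9 conventional dendritic cell markers summed to 210 and 200 CPM, against 54.0 and 64.0 CPM in the other kept cells, with 2 and 1 of 9 at 0. B cell markers summed to 13.9 and 18.8 CPM, with 6 and 3 of 9 at 0, and stem cell markers to 43.9 and 43.4 CPM. The 9 macrophage markers summed to 28.2 and 20.8 CPM, with 7 and 4 of 9 at 0. In the other kept cells they summed to 49.6 and 61.0 CPM. The 24 tissue macrophage genes summed to 777 and 660 CPM, against 199 and 223 CPM. Of 6 of them measured, 4 were higher and 2 lower, beside 11.6% higher and 6.28% lower over all genes. Plasmacytoid dendritic cell markers summed to 192 and 242 CPM, against 209 and 330 CPM. Erythroid markers summed to 181 and 151 CPM, against 344 and 661 CPM. Megakaryocyte markers differed between the libraries, at 13.9 and 313 CPM, and basophil and mast cell markers stood at 137 and 277 CPM. Few cells were high in them. Megakaryocyte markers made up at least 0.1% of UMIs in 0 of 166 and 1 of 438 monocytes, at most 1.71%. For basophil and mast cell markers it was 2 and 2 monocytes, at most 0.837% and 6.88%.

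Against the other kept marrow cells of the same library, 703 of 6078 genes were higher in the Ly6c2 monocytes, that is 11.6%, and 382 were lower, that is 6.28%. A gene was counted when it was at least 2-fold apart in the same direction in both libraries with intervals that did not overlap. Since transcripts selected the cells, these counts describe the class and test nothing. The genes with the highest ratios included surface proteins, a chemokine and a stress-responsive transcription factor. Ms4a4a, on chromosome 19 at 11375523 to 11392790 of mm10, was 33.4-fold higher in the WT library (29.5 to 37.8), at 238 against 7.12 CPM. In the Cysltr1 KO library it was 25.2-fold higher (22.01 to 28.95), at 193 against 7.65 CPM. Ccl2, the chemokine ligand of Ccr2, had 476 against 22.98 CPM and 454 against 16.6 CPM. Monocytes of this class thus carried transcripts of both the receptor and its ligand.

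Other leading genes fell into a few roles. Clec4a1 and Clec4a3, C-type lectins of myeloid cells, stood at 56.4 and 90.5 CPM in the WT monocytes, against 2.28 and 4.24 CPM in the other cells. Vcan, the matrix proteoglycan versican, had 216 against 6.87 CPM in the WT library and 50.6 against 2.40 CPM in the other. Atf3, the stress-responsive transcription factor, had 1526 against 101 CPM and 1532 against 103 CPM. S100a4 had 744 against 52.3 CPM and 1063 against 79.96 CPM. The ratios of Ms4a8a, Arhgef37 and Pid1 were 35.9, 21.9 and 20.03 in the WT library and 26.3, 21.9 and 14.3 in the other.

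The lowest ratios belonged to granule and progenitor genes. Ltf, the lactoferrin of specific granules, was represented by 2 UMIs in the WT monocytes and 1 in the Cysltr1 KO monocytes, against 431 and 935 CPM in the other cells. Those counts gave ratios of 0.00208 (0.000251 to 0.0075) and 0.000366 (9.26e-06 to 0.00204). Ms4a3, a membrane protein of granulocyte-monocyte progenitors, had 26.4 against 1262 CPM and 17.8 against 1024 CPM. Ctsg had 138 against 3178 CPM and 104 against 2379 CPM. Gfi1, a transcription factor of the neutrophil line, was seen with 2 and 1 UMIs, against 37.4 and 32.4 CPM in the other cells. Vcam1, an adhesion molecule of marrow macrophages, had 0 and 2 UMIs, against 46.5 and 57.5 CPM. Prss57, Nkg7, Olfm4, Fkbp11, Cd63, Ugt8a and Cd27 completed the 12 lowest.

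**Figure D2:**
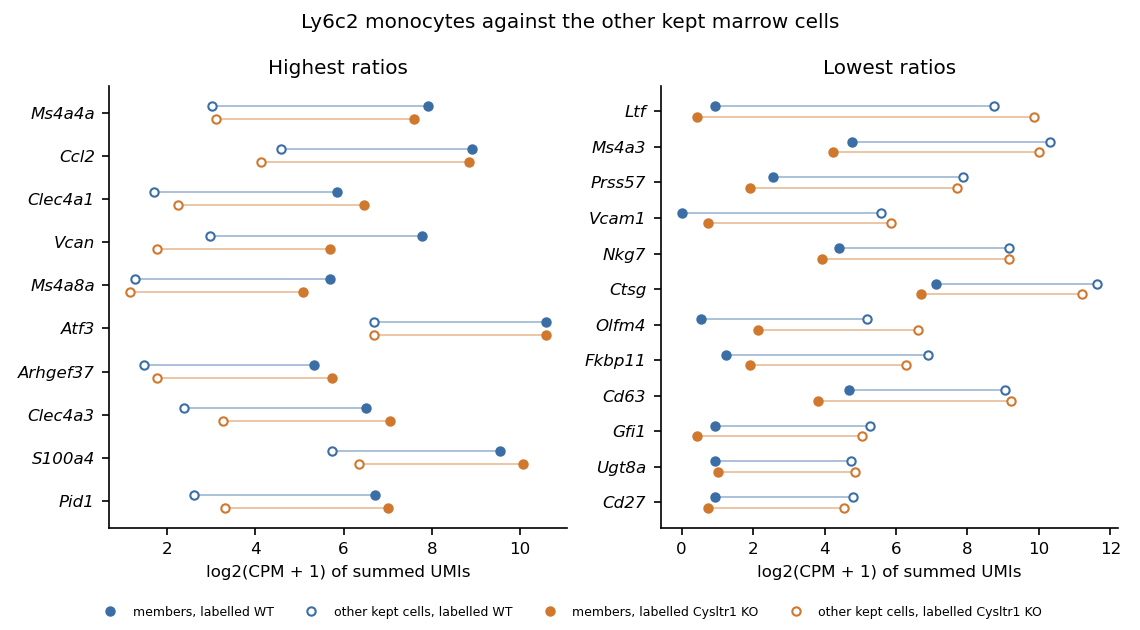
log2(CPM + 1) of summed UMIs (horizontal axes) for genes among the 12 with the highest and the 12 with the lowest ratio of Ly6c2 monocytes (filled points) to other kept marrow cells (open points), for the libraries labelled WT and Cysltr1 KO. Each line joins the 2 values of a library. Both libraries give the same direction for every gene shown, as the way the genes were counted requires.

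Of 35 monocyte genes outside the rule, 31 were higher in the class and 0 lower, with a median log2 ratio of 2.33 in the WT library and 2.43 in the Cysltr1 KO library. Over all 6078 genes the medians were 0.08 and 0.11, with 11.6% higher and 6.28% lower. Lyz2, the lysozyme of myeloid cells, had 15508 against 1552 CPM and 21143 against 2613 CPM. Csf1r had 114 against 28.5 CPM and 149 against 31.1 CPM. Cx3cr1, the fractalkine receptor, had 31.4 against 4.12 CPM and 37.6 against 5.80 CPM. Plac8, also of that list, went the other way without reaching 2-fold in both libraries, at 1477 against 2737 CPM and 1812 against 2427 CPM.

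More of the listed transcription factors were higher than lower. Of 20 measured, 11 were higher and 2 lower, beside 11.6% higher and 6.28% lower over all genes. The count of 2 lower is near that share. Klf4 had 362 against 60.4 CPM and 357 against 56.8 CPM. Irf5, a factor of inflammatory macrophages, had 194 against 23.1 CPM and 197 against 23.7 CPM. Zeb2, Cebpb, Id2, Klf2, Klf6, Nfil3, Rel and Nr4a1 were among the other higher ones. Cebpe and Gfi1, both of granulocyte development, were the lower pair. Cebpe had 12.99 against 111 CPM and 19.1 against 132 CPM. Irf8 reached 2-fold in the WT library alone, at 312 against 146 CPM and 309 against 172 CPM.

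Receptor and effector lists had more genes higher than lower, beside 11.6% higher and 6.28% lower over all genes. Among chemokines and their receptors, leaving out Ccr2, 9 of 13 were higher and 0 lower, including Ccr1, Cxcr4, Ccl3, Ccl9 and Cxcl2. With all cells thinned to 3000 UMIs 7 were higher and 4 lower, and without monocytes carrying another lineage 8 were higher and 3 lower. Toll-like receptor and sensor genes had 10 of 16 higher, among them Tlr2, the receptor for bacterial lipoproteins, at 106 against 12.5 CPM and 102 against 15.1 CPM. Fc receptors and lectins had 16 of 27 higher and 3 lower. Receptors and signalling genes of the colony-stimulating factors had 9 of 19 higher. Of 25 lysosomal genes 18 were higher and 3 lower. Ctss, a cathepsin that trims the MHC class II invariant chain, had 610 against 59.2 CPM and 711 against 66.8 CPM. Lgmn, the lysosomal protease legumain, had 53.3 against 5.23 CPM and 45.1 against 5.93 CPM.

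Coagulation and matrix genes other than the rule genes were higher in 6 of 8 cases, beside 11.6% over all genes. Tgfbi, a secreted matrix protein, had 553 against 49.0 CPM and 406 against 49.0 CPM. F10, coagulation factor X, had 216 against 38.3 CPM and 135 against 27.9 CPM. Complement genes had 3 of 7 higher, C3 and Cfp among them. Of the leukotriene pathway, Cysltr1 was higher in the class, and Alox5, Lta4h and Mgst2 were lower. Alox5, the 5-lipoxygenase that starts leukotriene synthesis, had 6.27 against 23.6 CPM and 7.52 against 41.0 CPM. Lta4h, which makes leukotriene B4, had 70.8 against 275 CPM and 58.8 against 274 CPM. Alox5ap, the protein that presents arachidonic acid to Alox5, had 1721 against 733 CPM and 1731 against 896 CPM, short of 2-fold in the second library.

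Azurophil and progenitor genes outside the rule were lower in 18 of 21 cases and higher in 0, with medians of -3.00 and -2.72. Myb, a factor of immature progenitors, had 17.5 against 254 CPM and 18.1 against 209 CPM. The neutrophil-like list had 10 of 18 lower and 1 higher, Mcemp1, at 292 against 64.6 CPM and 257 against 106 CPM. Type I interferon response genes were higher in 13 of 19 cases and lower in 0, with medians of 1.71 and 1.82. Ifi27l2a had 913 against 45.9 CPM and 1781 against 140 CPM, and Irf7, the master factor of interferon production, 47.5 against 5.95 CPM and 94.7 against 16.0 CPM. Isg15 stayed under 2-fold in the WT library, at 20.6 against 11.5 CPM. None of 17 MHC class I genes and none of 5 interferon gamma GTPase genes reached 2-fold in both libraries. Over all genes 11.6% were higher and 6.28% lower.

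Some S phase genes were counted as lower, and few genes of G2 and M phase were counted. Of 22 S phase genes 5 were lower and 0 higher, with medians of -0.66 and -0.74, beside 6.28% lower over all genes. The number lower was 8 without the cells most like simulated doublets, 7 with all cells thinned to 3000 UMIs, and 6 with TMM scaling. It was 7 without monocytes carrying another lineage and 1 at the azurophil limit of 0.5%. Of 25 genes of G2 and M phase 1 was higher and 0 lower, which is below the 11.6% higher over all genes, and the medians were 0.90 and 0.67. The one counted was Nusap1, a spindle protein, at 147 against 64.8 CPM and 130 against 63.0 CPM. With other cells and monocytes both thinned to 3000 UMIs, a random draw that gives every cell the same depth, or with TMM scaling, Nusap1 was no longer counted. Without the cells most like simulated doublets 3 of the 25 were higher. Without monocytes carrying another lineage, or at the azurophil limit of 0.5%, 4 were higher.

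Inside the class, 140 of 3733 genes, that is 3.75%, had a variance of at least 1.5 times the mean in both libraries. This was measured over 165 and 419 monocytes thinned to 3000 UMIs, and counting alone gives a ratio of 1. Over all genes the median ratio was 1.05 in both libraries. The genes that varied most were those of neutrophil granules and cytoplasm. S100a9 had ratios of 68.7 and 110 and was found in 41.2% and 30.1% of cells, and S100a8 had 44.8 and 57.0 with 60.0% and 50.8% of cells. Both encode calprotectin subunits. Retnlg, a resistin-like protein of neutrophils, had ratios of 37.7 and 40.8 but was found in only 3.64% and 5.73% of cells. Lcn2, the iron-carrier binding lipocalin of neutrophils, had 5.02 and 6.73.

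Most monocytes carried some neutrophil-like transcripts, but a small share of the cells held most of them. At 3000 UMIs per cell 8 of 165 and 11 of 419 monocytes had 0 UMIs of that list, and the medians were 8 and 6 UMIs. The 10% of cells with the highest sum held 59.3% of it in the WT library and 71.2% in the Cysltr1 KO library. Retnlg was at 0 in the 41 WT monocytes with the lowest sums and at 1049 CPM in the 41 with the highest, and at 0 and 1990 CPM in the 104 and 104 of the other library. Chil3, a chitinase-like protein, stood at 252 and 1439 CPM in those WT cells, and at 76.9 and 359 CPM in the other library. Cd74, the MHC class II invariant chain, ran the other way, from 512 to 8.13 CPM and from 282 to 16.0 CPM. Neutrophil markers moved with this list by definition, and the part that free RNA had in it was not tested. With the highest doublet scores left out, 8 and 28 of the monocytes were lost, and the ratio of S100a9 was 61.9 and 73.1. Without the monocytes carrying markers of another lineage it was 3.95 and 6.90, and Retnlg was no longer counted as variable under either setting. Of the 40 and 58 monocytes left out for another lineage, 33 and 46 had at least 1% of UMIs from neutrophil markers. Lower ratios of neutrophil genes thus followed in part from how those cells were chosen.

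Other variable genes belonged to separate groups. Cd74 had variance to mean ratios of 9.85 and 19.0 and was found in 7.88% and 7.64% of cells, and H2-Aa, a class II chain, had 5.47 and 10.3 with 4.24% and 3.10%. Ccl4 had 10.8 and 11.1 in 18.8% and 17.2% of cells, and Cxcl2, a neutrophil-attracting chemokine, had 9.04 and 6.07. Lyz2, present in nearly all cells, had 13.5 and 15.6. Ifi27l2a had 6.63 and 5.07, and Apoe, a lipid carrier of macrophages, 5.85 and 7.33. Histone transcripts were represented by Hist1h2ae with 5.82 and 7.21 and H3f3b with 6.05 and 7.41. The list also held the noncoding AY036118 with 7.41 and 14.6. Prss34, a basophil protease, had 7.53 and 173, and 96.3% of its UMIs in the Cysltr1 KO monocytes came from 1 cell.

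Some lists had more variable genes than the 3.75% over all genes. Of 11 chemokine genes 7 were variable, of 22 immediate early and heat shock genes 12, of 24 genes of G2 and M phase 9, and of 35 monocyte genes 13. None of 22 Fc receptor and lectin genes, 15 MHC class I genes, 14 adhesion genes, 14 Toll-like receptor genes or 17 colony-stimulating factor receptor genes reached the limit, and of 22 lysosomal genes 1 did. At lists of this size those counts are near the share over all genes.

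Genes of G2 and M phase were spread widely over the monocytes. At 3000 UMIs per cell the 25 genes of G2 and M phase summed to a median of 25 UMIs in the WT library and 6 in the Cysltr1 KO library. At least 10 such UMIs were found in 109 of 165 cells, 66.1% (58.3 to 73.2), and in 184 of 419, 43.9% (39.1 to 48.8). Few cells lay just above that limit: 5 WT cells and 20 Cysltr1 KO cells had 10 to 14 UMIs, while 21 and 54 had 5 to 9. The sum moved with the cell's own depth before thinning. In the Cysltr1 KO library 13.6% of the cells with 3066 to 4915 UMIs passed, 37.9% of those with 4920 to 7530, and 80.6% of those with 7544 to 49721. In the WT library the shares were 56.4% for 3322 to 9976 UMIs, 54.5% for 9993 to 14996, and 87.3% for 15104 to 41406.

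**Figure D3:**
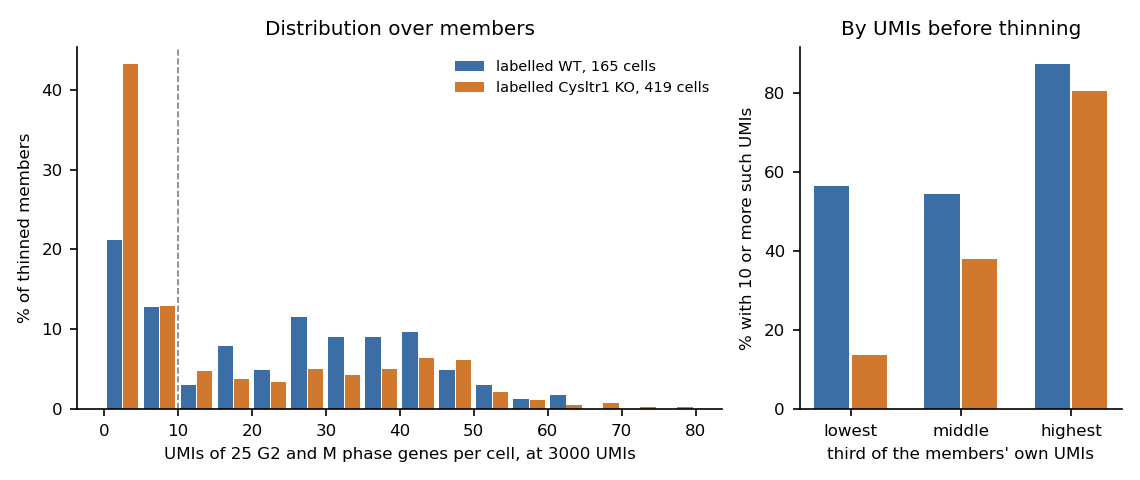
Left, the share of Ly6c2 monocytes (vertical axis, %) by their UMIs of 25 genes of G2 and M phase at 3000 UMIs per cell (horizontal axis), with a dashed line at 10 UMIs, for 165 cells labelled WT and 419 labelled Cysltr1 KO. Right, the share at 10 or more such UMIs in 3 equal groups of cells by their own UMIs before thinning. Cells with many of these UMIs spread broadly above the line, and their share is highest among the deepest cells, at 87.3% and 80.6%.

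Monocyte genes were lower where the G2 and M phase sum was high. In the 41 WT monocytes with the lowest sums Mki67, a proliferation antigen, stood at 32.5 CPM, and in the 41 with the highest at 1041 CPM. In the 104 lowest and 104 highest cells of the Cysltr1 KO library it was 6.41 and 1154 CPM. Lyz2 went from 23252 to 13032 CPM and from 32218 to 17125 CPM in the same groups. S100a4 went from 1130 to 602 CPM and from 1394 to 939 CPM, Ms4a4a from 455 to 220 CPM and from 359 to 135 CPM, and Ccl2 from 683 to 341 CPM and from 776 to 327 CPM. Irf8 was higher in the cells with high sums, at 154 and 455 CPM and at 276 and 375 CPM. Ms4a6c differed little, at 1382 and 1341 CPM and at 1798 and 1712 CPM. Across cells the rank correlation of the monocyte list with the G2 and M phase list was -0.50 over 165 cells and -0.64 over 419. These cells share a library, and the monocyte list also ran against the cell's own UMIs, at -0.43 and -0.69.

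Between the libraries, Ly6c2 monocytes were compared at a matched depth of 3000 UMIs per cell, with 165 cells labelled WT and 419 labelled Cysltr1 KO. Of 5595 genes, 73 were at least 1.5-fold higher in the Cysltr1 KO library with intervals apart, that is 1.30%, and 74 were lower, that is 1.32%. All folds are on the scale of log2(CPM + 1). A single random draw chose the UMIs, and another draw kept 38 of the 73 and 31 of the 74. Unthinned sums gave 82 of 5679 genes higher, 1.44%, and 71 lower, 1.25%. Over 14 other settings 21 of the higher and 18 of the lower genes were counted in at least 10.

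Vcan and Chil3 were counted as lower under each setting tried. Vcan, on chromosome 13 at 89655312 to 89742509 of mm10, stood at 267 CPM (interval 223 to 316) in the WT monocytes and 48.5 CPM (37.1 to 62.3) in the Cysltr1 KO monocytes. The log2 ratio was -2.43, and 62 of 165 cells against 43 of 419 held the transcript. Unthinned, it was -2.08. Chil3 stood at 648 and 204 CPM, a log2 ratio of -1.67, and -1.56 unthinned. Both were lower in 14 of the 14 other settings, as were Lcn2 and the metal-binding Mt1. In the other kept marrow cells, unthinned, Vcan stood at 6.87 and 2.40 CPM, a log2 ratio of -1.21. Chil3 stood there at 128 and 124 CPM, a log2 ratio of -0.04. The difference between those cells and the monocytes was not tested.

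Hspa1a, an inducible heat shock protein whose reads may be shared with the near-identical Hspa1b, had 54.5 and 11.1 CPM, a log2 ratio of -2.19. It was also lower in the other kept cells, at 22.7 and 2.38 CPM unthinned. Dusp5, a phosphatase of MAP kinases, had 54.5 and 4.77 CPM, from 27 and 6 UMIs, and its log2 ratio went from -3.27 to -1.87 unthinned. Dedd2, a death effector domain protein, had 60.6 and 14.3 CPM. Jchain, the joining chain of antibodies, had 271 and 0.80 CPM, but 1 WT cell held 96.3% of its UMIs there, and without it the log2 ratio was -3.48. Fam45a, Kars, Cd7, Trip13, Stard7 and Ube2t had ratios from -1.81 to -1.44, which came to between -0.95 and -0.40 without thinning. Of 18 monocyte transcription factors measured 3 were lower, beside 1.32% over all genes, among them Nr4a1 at 188 and 108 CPM and Egr1 at 174 and 107 CPM. Unthinned, with the stricter class rule or without monocytes carrying another lineage 1 of 18 was lower, and with the stricter class rule 1 was also higher. In the cells meeting the rule in spleen Nr4a1 went the other way, at 376 and 592 CPM. In those of tumor it was lower in the Cysltr1 KO library, at 110 and 54.0 CPM.

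Interferon response genes made up 9 of the 73 genes that were higher in the library labelled Cysltr1 KO. These genes are switched on by type I interferon through a complex that contains Irf9 and binds a repeated GAAA element. Of 24 measured, 9 were higher and 0 lower, with a median log2 ratio of 0.80, against a median of -0.03 over all genes and the 1.30% above. Ifi44 had 12.1 CPM (interval 4.45 to 26.4) in the WT monocytes and 62.1 CPM (49.0 to 77.4) in the Cysltr1 KO monocytes, found in 6 of 165 and 58 of 419 cells. Isg15, a ubiquitin-like protein, had 20.2 and 78.0 CPM and was found in 10 and 72 cells. Rtp4 had 10.1 and 46.9 CPM and Oas1a, a sensor of double-stranded RNA, 14.1 and 57.3 CPM. The transcription factor Irf7 had 46.5 and 101 CPM. Ifi27l2a, an interferon-inducible protein, went from 1093 to 2034 CPM, and Slfn5 and Bst2 from 66.7 to 133 CPM and from 129 to 202 CPM.

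**Figure D4:**
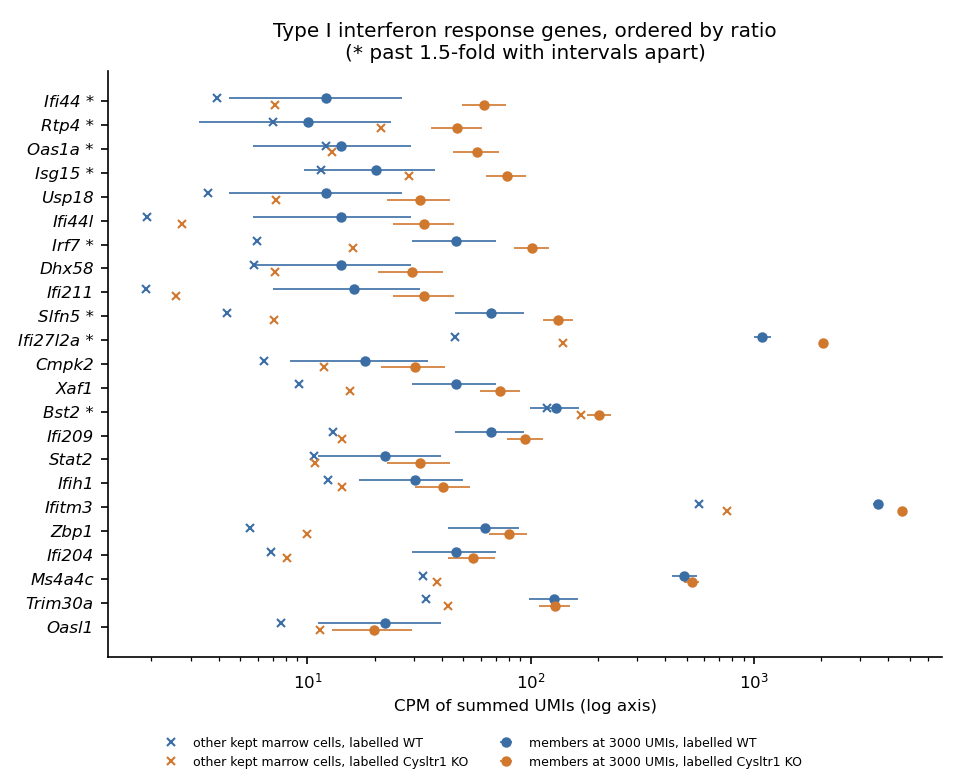
CPM of summed UMIs (horizontal log axis) of type I interferon response genes, ordered by their ratio between the libraries, in Ly6c2 monocytes at 3000 UMIs per cell (points with exact Poisson intervals) and in the other kept marrow cells (crosses), for the libraries labelled WT and Cysltr1 KO. Genes with a star, such as Ifi44 at 12.1 and 62.1 CPM, are at least 1.5-fold apart with intervals that do not overlap. Sums shown as crosses were not thinned.

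Interferon genes were not stable over all ways of matching depth. The unthinned sums gave 9 of 21 higher with a median of 0.50, but 5000 UMIs per cell gave 3 of 19 and 0.39. With 91 monocytes drawn from each library within bins of their own UMIs, 1 of 14 was higher and the median was 0.21. The list ran against depth within a library, with rank correlations of -0.28 and -0.46 with the cell's own UMIs. Among monocytes with fewer than 10 UMIs of G2 and M phase genes 5 of 22 were higher, and among the rest 1 of 18. In none of these settings was a gene of the list counted as lower. Single genes ranged widely: Ifi44 lay between 1.06 and 3.08 over the settings in which it was measured and Slfn5 between -0.52 and 1.05, and Oas1a fell from 1.94 to 0.59 unthinned.

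Interferon response genes were also higher in the other kept marrow cells. There 11 of 24 were higher in the Cysltr1 KO library, with a median of 0.51, where 2.88% of all genes were higher and 0.268% lower. Isg15 stood at 11.5 and 28.5 CPM, Irf7 at 5.95 and 16.0 CPM, and Ifi27l2a at 45.9 and 140 CPM, while Oas1a, at 12.1 and 12.8 CPM, was not counted. The sums of those cells were not thinned. Unthinned, the median over the same 24 genes in the monocytes was 0.49. The list as a whole thus had the same direction in the other kept cells of this pair of libraries, and whether the size differed was not tested.

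Promoter sequence was read for the interferon list from RefSeq windows of the build GRCm38.p6, 250 bases upstream of each start. A pair of GAAA blocks separated by any 2 bases, searched on both strands with overlaps allowed, was present in 14 of 29 listed genes with a window, 48.3%, and in 3.46% of 27025 genes. Of all 32851 windows 2.98% held it. Among the genes counted as higher it was in 4 of 6 with a window, and among those measured and not counted in 3 of 11. The 4 are shown because they belong to the list whose members were higher together, and capitals mark the matches. Isg15 lies at chr4:156200840-156200919 on the minus strand, Oas1a at chr5:120907526-120907574 on the minus strand, Bst2 at chr8:71537552-71537631 on the minus strand and Slfn5 at chr11:82951912-82951991 on the plus strand, each written 5′ to 3′ along the gene.
Isg15: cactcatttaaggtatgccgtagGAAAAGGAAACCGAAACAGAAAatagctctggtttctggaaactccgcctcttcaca
Oas1a: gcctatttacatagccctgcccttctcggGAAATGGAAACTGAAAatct
Bst2: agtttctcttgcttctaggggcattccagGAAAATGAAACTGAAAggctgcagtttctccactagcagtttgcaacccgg
Slfn5: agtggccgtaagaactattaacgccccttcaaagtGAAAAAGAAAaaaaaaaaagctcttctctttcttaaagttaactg
In Isg15 3 overlapping matches formed 1 run, the nearest ending 57 bases before the start. Oas1a and Bst2 held 2 each and Slfn5 1. Ifi44 and Irf7 had no match in their windows. A match is a string of letters and does not show binding.

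Of the 73 higher genes, those outside the interferon list had varied roles. Of 4 interferon gamma GTPase genes measured 2 were higher: Irgm1 at 14.1 and 47.7 CPM and Ifi47 at 22.2 and 67.6 CPM, counted in 5 and 11 of the 14 other settings. Of 17 MHC class I genes 2 were higher, H2-Q6 at 38.4 and 83.5 CPM and H2-T23 at 141 and 217 CPM, and reads of H2-Q6 may be shared with its near-identical neighbours. These counts stand beside 1.30% higher over all genes. Btbd9 had 12.1 and 42.2 CPM in the monocytes, and 15.2 and 50.6 CPM unthinned in the other kept cells. Cysltr1, in 18 and 97 cells after thinning, had 36.4 and 90.7 CPM. Ldlrad3, Smim5, Mrpl38 and Zfp467 had log2 ratios from 1.67 to 2.17, which came to between 0.80 and 0.997 without thinning. Prss34 and Pf4, a platelet chemokine, rested on single cells, which held 96.3% and 67.6% of their UMIs in the Cysltr1 KO monocytes.

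Monocyte genes were counted in both directions. Of 35 measured, 4 were higher, namely S100a4, Clec4a1, Clec4a3 and Gpr141, and Vcan and Chil3 were lower, with a median of 0.23, beside 1.30% higher and 1.32% lower over all genes. S100a4 had 770 and 1170 CPM. With equal numbers of cells drawn within bins of their own UMIs, 0 of 34 monocyte genes were higher and 5 lower, with a median of -0.18, and at 5000 UMIs per cell 0 were higher and 2 lower. None of 22 lysosomal genes, 12 chemokine genes or 20 Toll-like receptor genes was counted in either direction, but in the bins of UMIs 3 of 22 lysosomal and 4 of 11 chemokine genes were lower. Of 25 genes of G2 and M phase 6 were lower and 0 higher, with a median of -0.44. That direction reversed when equal numbers of cells were drawn within bins of their own UMIs, where 7 were higher and 0 lower with a median of 0.64, and at 5000 UMIs per cell none was counted. The difference in G2 and M phase genes moved with the cells' own depth, and the 2 cannot be told apart here.

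The same rule was applied to spleen and tumor, where it found 56 and 48 cells in spleen and 55 and 60 in tumor, for the libraries labelled WT and Cysltr1 KO. Values there are unthinned and rest on few cells, and the marrow values beside them are unthinned as well. Fn1 set the tumor cells little apart, at 1310 and 1003 CPM against 1121 and 922 CPM in the other kept tumor cells. F13a1 was found in 67.3% and 68.3% of the tumor cells, at 267 and 248 CPM, against 1468 and 1391 CPM in marrow. Whether the rule found the same class in each tissue was not tested. Proliferation transcripts were highest in marrow: Mki67 stood at 598 and 515 CPM there, 215 and 162 CPM in spleen, and 101 and 37.2 CPM in tumor. Class II transcripts were lowest in marrow. Cd74 had 137 and 159 CPM in marrow, 2733 and 2711 CPM in spleen, and 2227 and 3966 CPM in tumor. Csf1r was 114 and 149 CPM in marrow and 324 and 344 CPM in spleen. Arg1, the arginase of suppressive myeloid cells, was at 0 in marrow and spleen cells and at 1277 and 823 CPM in tumor. Cxcl2 was lowest in marrow, at 534 and 383 CPM, then 3767 and 2772 CPM in spleen, and 11786 and 11647 CPM in tumor.

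Values by genotype label in the 3 tissues had the same direction for some genes. Vcan was lower in each library labelled Cysltr1 KO, at 216 and 50.6 CPM in marrow, 363 and 118 CPM in spleen, and 240 and 132 CPM in tumor. The share of cells with Vcan was 62.7% and 17.6% in marrow and 73.2% and 43.8% in spleen. In tumor that share was not lower, at 43.6% and 45.0%. Chil3 was lower in marrow, at 538 and 182 CPM, and in spleen, at 853 and 364 CPM, while tumor had 37.5 and 54.0 CPM. Interferon genes were higher in marrow and spleen: Irf7 had 47.5 and 94.7 CPM, then 172 and 395 CPM, and Ifi44 12.5 and 49.9 CPM, then 87.6 and 224 CPM. In tumor, where both were higher in the WT library than in the WT libraries of marrow and spleen, Irf7 had 1017 and 667 CPM and Ifi44 232 and 158 CPM, with intervals that overlapped for Ifi44. Whether mice were shared between the tissues of a genotype is not given in the sources used here, so the tissues are not replicates of each other.

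**Figure D5:**
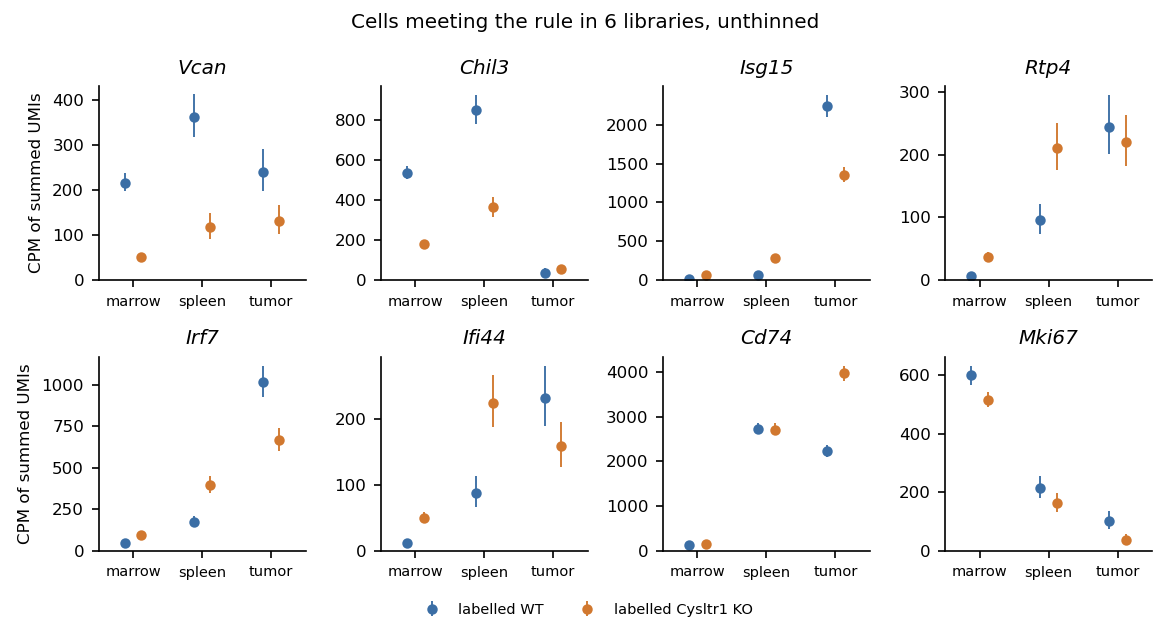
CPM of summed UMIs (vertical axes, from 0) of 8 genes in the cells that met the rule in marrow, spleen and tumor, unthinned, for libraries labelled WT and Cysltr1 KO. Points are 1 library each with exact Poisson intervals. Vcan is lower in the Cysltr1 KO library of each tissue, and Isg15, Rtp4, Irf7 and Ifi44 are higher in that library in marrow and spleen.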

How the data were processed

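Ly6c2 monocytes were taken from 2 of 6 single-cell libraries. The deposited matrices hold raw UMI counts per gene and barcode, with no normalization. Cell Ranger is named as version 6.0.0, with mm10, per the submitters' processing notes and as 6.1.0 per the file headers. Both a 5' and a 3' kit are named in the labels' protocols. The members and gene lists were chosen with earlier results of these data known.

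UMIs were summed over cells and given as CPM. Genes were compared with other marrow cells at 20 CPM or more and at least 50 UMIs in each library. Variation was measured at a mean of at least 0.1 UMI per cell. The genotype labels were compared after thinning to 3000 UMIs, with a pseudocount of 1 CPM, at least 20 UMIs and 20 CPM, leaving out 1 and 19 shallower cells. The other kept marrow cells were compared between the labels without thinning. Genes were named by rank: the 12 highest and 12 lowest ratios in each comparison, the 15 most variable, and up to 4 per list. No gene was named by rank when it was ribosomal, mitochondrial, a globin, an antigen receptor segment, Xist, Y-linked or provisional. Genes of lists named beyond these, and the further genes counted in every setting, were chosen after their values were seen. Doublets were kept, and as an alternative the highest scores against simulated doublets were removed, at 0.8% per 1000 barcodes. Scripts in Python 3.11.15 with numpy 2.4.6, scipy 1.17.1 and pandas 2.3.3 were tested on simulated data. There 24 of 5392 unchanged genes were counted between the labels, and 0 of 5490 against other cells. Of 100 genes changed 2-fold, 89 were recovered between the labels and 25 against other cells. At 3-fold it was 99 and 100. Other depths, scalings, filters, draws, class rules and cell subsets were tried as alternatives. A few genes that the rule names are not reported here. The other 4 libraries were used for side by side values only.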

Additional observations from a re-analysis of the deposited data

Results flagged for a closer look

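Isg15 went opposite ways by genotype label in different tissues. In the cells meeting the rule in tumor it stood at 2238 CPM in the library labelled WT and 1359 CPM in the library labelled Cysltr1 KO, a log2 ratio of -0.72. In marrow Ly6c2 monocytes it stood at 20.6 and 62.5 CPM unthinned, a log2 ratio of 1.56, and in spleen at 63.0 and 282 CPM. Each tissue had 1 library per label, and the difference between tissues was not tested.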

How the results depend on the processing

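No paired analysis was possible because there was 1 library per tissue and genotype. The share of Ly6c2 monocytes became 6.37% (WT) and 9.98% (Cysltr1 KO) with the azurophil limit at 0.5%. With no filter on low counts 901 genes were lower than in the other marrow cells, against 382. At 5000 UMIs per cell 242 genes were variable, against 140. Between the genotype labels 47 of 3921 genes were lower with equal numbers in bins of UMIs, against 74 of 5595. The stricter class rule gave 38 of 5177 higher, against 73 of 5595. Monocytes at 10 or more G2 and M phase UMIs gave 40 higher and 34 lower. The number of genes measured differed between these settings, so the counts are not shares of the same total.

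Single genes reversed in 10 cases, and the cause was not tested. In bins of UMIs Oas1a had a log2 ratio of -0.16 and Ube2t 2.12. Cd7 had 0.19 with the deeper library thinned before the rule, Prss34 -0.25 without the highest doublet scores and -0.61 at the azurophil limit of 0.5%, and Pf4 -0.64 without monocytes carrying another lineage. Below 10 G2 and M phase UMIs Smim5 had -0.036, Cd7 1.26 and Trip13 2.39, and at 10 or more Mrpl38 had -0.053. In the settings given here Oas1a, Ube2t, Cd7 and Trip13 fell below the count minimum. Over the settings in which they were measured, Oas1a lay between 0.093 and 1.99 and Ube2t between -1.62 and -0.16. Cd7 lay between -1.54 and -0.32 and Trip13 between -1.53 and -1.29. Among the other values of named genes between the labels 250 moved little and 76 moved further. The azurophil limit of 0.5%, the removal of other lineages, the other draw and the cell cycle subsets were chosen after seeing the data. Depth limits the ratios of genes such as Rtp4, which rested on 5 UMIs in the 165 thinned WT monocytes.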

Other observations

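Ribonuclease and energy genes differed between the labels in a few Ly6c2 monocyte transcripts. Of 6 chitinase-like and ribonuclease genes measured at 3000 UMIs, Rnase4 and Rnase6 were higher in the library labelled Cysltr1 KO and Chil3 was lower. Of 19 hypoxia and glycolysis genes Gapdh and Eno1 were lower and 0 higher. Of 20 colony-stimulating factor receptor and signalling genes Il6ra, a subunit of the interleukin 6 receptor, was among the 2 that were higher. Of 13 NF-kB target genes Nfkbia and Tnfaip3, both feedback inhibitors of that pathway, were lower. With TMM scaling, the stricter class rule or the azurophil limit of 0.5% none of the NF-kB target genes was lower. Of the 14 other settings, Gapdh was counted in 13, Rnase6 in 10, Rnase4 in 8, Eno1, Nfkbia and Tnfaip3 in 6 each, and Il6ra in 4. These counts stand beside 1.30% higher and 1.32% lower over all genes.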
